A study of Drosophila melanogaster with 4 samples.

Results

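The lipoprotein genes of Drosophila melanogaster described here are apolpp, which encodes apolipophorin, the protein backbone of the haemolymph lipoprotein lipophorin; Mtp, the microsomal triacylglycerol transfer protein that loads lipid onto it; and the lipophorin receptor genes LpR1 and LpR2. These 4 genes were chosen by symbol, with results of these files already known, out of 5398 genes that had an assigned intron event in every library. They hold 43 of the 31989 splicing events listed in any library and 38 of the 70463 exon bins. Because of that choice, every mutant against wild type value of these genes is a description and carries no p-value or call. Whole larvae of Oregon R (wild type, 2 libraries) and of the Smn mutant strain labelled SmnX7/D (2 libraries) were collected at 74 ± 2 hours after egg laying and were raised at 24 ± 1°C on molasses and agar. Smn encodes a protein needed to assemble spliceosomal small nuclear ribonucleoproteins. Nothing in the labels says whether the libraries came from separate cultures, so spread between libraries may be technical. Exon usage was compared by the authors in the same mutant and wild type larvae and, from other libraries, between puff stage 1-2 of the third instar (3 libraries) and either the second instar (2 libraries) or the third instar at 12 h (2 libraries).

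In insects, lipophorin is made mainly in the fat body, an organ that combines storage and liver-like functions. Mtp transfers lipid to the nascent apolipophorin in the endoplasmic reticulum, and the particle then carries diacylglycerol, sterols and other lipids through the haemolymph between gut, fat body and the other tissues. The receptors belong to the low density lipoprotein receptor family, whose extracellular part carries cysteine-rich ligand-binding repeats. Both receptor genes are transcribed from a distal and a proximal start, and it is the isoforms of the distal start that are known to promote neutral lipid uptake in ovaries and imaginal discs.

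On the reference assembly dm6, apolpp (FBgn0087002) lies on chromosome 4 from 1060969 to 1077273 on the plus strand and has 4 annotated transcripts of 8 exons and 3351 codons. Mtp (FBgn0266369) lies on chromosome 2L from 20919094 to 20922876 on the minus strand, with 1 transcript of 6 exons and 886 codons. LpR1 (FBgn0066101; chromosome 3R, 25741348 to 25763105, minus strand) and LpR2 (FBgn0051092; chromosome 3R, 25698727 to 25740465, minus strand) are neighbours with 10 and 9 annotated transcripts, of 830 to 1076 and 380 to 1064 codons. All other event coordinates below are dm3, as in the authors' event names.

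Introns are numbered in the transcripts RA and RB. The 5 apolpp introns with a length-matched event are shown first, because the retained share of read pairs was higher in both mutant libraries at all 5. The sequences are those of the introns annotated on dm6, from the RefSeq genome, with the splice donor GT and acceptor AG in capitals. Each is a short intron of 55 to 61 bases that starts with GT and ends with AG.
apolpp intron 1: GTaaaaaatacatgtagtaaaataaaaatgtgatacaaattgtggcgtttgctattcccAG
apolpp intron 4: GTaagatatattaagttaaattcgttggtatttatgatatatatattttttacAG
apolpp intron 5: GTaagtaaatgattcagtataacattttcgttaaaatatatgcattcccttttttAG
apolpp intron 6: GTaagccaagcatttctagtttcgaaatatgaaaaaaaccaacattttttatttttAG
apolpp intron 7: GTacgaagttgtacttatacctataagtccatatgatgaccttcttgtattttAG
Introns 2 and 3 have no event. The 5 introns lie at 1065023-1065083, 1073106-1073160, 1073382-1073438, 1075558-1075615 and 1075737-1075791 of chromosome 4 on dm6. The donor of intron 1 has an alternative 6 bases upstream, and the GT of each is in capitals in the following stretch of chromosome 4 (dm6, 1065005-1065030).
apolpp donor pair: ggaccagtgttgGTaaagGTaaaaaa
The introns of Mtp with an event are shown beside them, being of like length but with few retained pairs (chromosome 2L, dm6, minus strand, 20920227-20920285, 20919619-20919685 and 20919393-20919450).
Mtp intron 3: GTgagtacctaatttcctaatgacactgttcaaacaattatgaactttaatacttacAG
Mtp intron 4: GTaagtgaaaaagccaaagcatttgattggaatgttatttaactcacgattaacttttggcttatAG
Mtp intron 5: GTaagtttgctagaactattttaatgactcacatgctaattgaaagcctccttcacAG
The mutually exclusive exons of LpR2 carry the widest difference in a receptor fraction. The deposited event gives only 1 base of each exon, so the exons shown are the shortest annotated ones on dm6 that end there. The upstream exon of 120 bases (chromosome 3R, dm6, 25713537-25713656, minus strand) and the downstream exon of 123 bases (25710025-25710147) are both coding throughout, hold whole numbers of codons (40 and 41), and are each part of 4 of the 9 annotated transcripts. Capitals mark the 70 positions, of 126 alignment columns (55.6%), at which the exons have the same base.
LpR2 upstream exclusive exon: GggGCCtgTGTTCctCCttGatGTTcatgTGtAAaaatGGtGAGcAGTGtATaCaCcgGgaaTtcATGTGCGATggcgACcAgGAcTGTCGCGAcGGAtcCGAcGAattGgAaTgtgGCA
LpR2 downstream exclusive exon: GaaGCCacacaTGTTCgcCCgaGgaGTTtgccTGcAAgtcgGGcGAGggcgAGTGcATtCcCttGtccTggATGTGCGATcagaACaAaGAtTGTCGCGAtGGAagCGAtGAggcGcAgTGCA

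Levels are given in SPM, spliced read pairs per 1000000 of a library's spliced pairs over all genes, where a spliced pair is one assigned to the spliced isoform alone. The libraries held 19232740 to 29046972 read pairs over retained intron events, lowest in wild type replicate 2. Across genes, log2 levels of wild type replicates 1 and 2 differed with an SD of 1.03, against 0.37 for the mutant libraries. Levels correlated across genes at 0.91 between wild type replicate 1 and each mutant library and at 0.80 between wild type replicate 2 and each, beside 0.87 between the wild type and 0.98 between the mutant libraries, so the wild type libraries stood apart from each other, and results are given for each library. Smn itself has no intron event and its single exon bin was not tested, so the files used here hold no check of the mutation in the RNA. Larval serum protein genes of the fat body were abundant in the authors' deposited table of mutant and wild type larvae, with mean normalized counts summed over exon bins of 142300 for Lsp1alpha, 182700 for Lsp1beta and 153800 for Lsp1gamma, but have no intron event, so only ade2 of the 7 fat body markers could be compared between groups. It had 44.9 and 34.7 SPM in wild type against 56.5 and 51.5 in mutants, a difference that did not pass the test (limma, adjusted p = 0.41). Of the other lists, the sum of 3 measured muscle markers of 4 was 15063 and 8226 SPM in wild type against 38343 and 22588 in mutants, higher in both mutant libraries. The 2 measured midgut markers of 5 summed to 1880 and 716 SPM in wild type against 1139 and 1519 in mutants, while the 2 measured neuronal markers of 4 went opposite ways. Syt1 had 150 and 333 SPM in wild type against 120 and 120 in mutants, and nSyb 9.32 and 3.15 in wild type against 29.6 and 26.6 in mutants, higher in both mutant libraries. None of the 3 haemocyte or 3 oenocyte markers was measured at this level. No marker passed the test, and 2, nSyb and the muscle gene Mhc, had an unadjusted p under 0.05. The part of tissue make-up in the results below was not tested; in whole larvae, fewer cells of a type and less RNA per cell cannot be told apart.

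Gene levels are sums of spliced pairs over a gene's introns. For apolpp, 5 introns gave 10172 and 3388 pairs in wild type replicates 1 and 2 and 8108 and 8644 in mutant replicates 1 and 2. In SPM these were 5928 and 2669 in wild type (mean 4298 ± 2305, SD, n = 2) and 4532 and 4896 in mutants (4714 ± 257, n = 2). Both mutant libraries thus lay between the wild type libraries, which differed from each other 2.22-fold. The log2 difference, mutant minus wild type, was 0.24 ± 0.49 (SE). Per intron, apolpp ranked 81 of 4114 genes by level.

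For Mtp, 3 introns gave 577 and 105 pairs in wild type against 210 and 212 in mutants, or 336 and 82.7 SPM against 117 and 120. Again the mutant libraries lay between the wild type libraries, here 4.07-fold apart, and the log2 difference was -0.49 ± 0.69 (SE). Wild type replicate 1 exceeded replicate 2 by at least as much as for apolpp in 11% of genes and by at least as much as for Mtp in 3.67%. Without wild type replicate 1, the mutant level of apolpp was 1.77 times that of the remaining wild type library and that of Mtp 1.44 times. Without wild type replicate 2, these ratios were 0.795 and 0.353, so the direction of both turns with the wild type library taken.

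The receptor genes had far fewer read pairs, and their replicates lay close together. An SD of 2 libraries can fall below the counting error of so few pairs, so it does not measure reproducibility here. LpR1 had 33 and 21 spliced pairs in wild type against 75 and 71 in mutants over 5 introns, or 19.2 and 16.5 SPM (17.9 ± 1.90, SD, n = 2) against 41.9 and 40.2 (41.1 ± 1.21, n = 2). LpR2 had 48 and 35 pairs in wild type against 139 and 142 in mutants over 7 introns, or 28.0 and 27.6 SPM (27.8 ± 0.287, n = 2) against 77.7 and 80.4 (79.1 ± 1.93, n = 2). Both mutant libraries were above both wild type libraries for each receptor gene. The log2 differences were 1.18 ± 0.28 (SE) for LpR1 and 1.49 ± 0.26 for LpR2, where the median of all 4114 genes was 0.15 and their quartiles were -0.35 and 0.64. Mutant libraries were both above wild type in 35.5% of all genes tested. Over all genes, limma called 0.0729% at an adjusted p under 0.05 in either direction (3 of 4114, with 889 below 0.05 before adjustment), 2153 genes without wild type replicate 1 and 1418 without replicate 2. In the fits without 1 wild type library, the other is assumed to vary like the mutant libraries. The mutant level of LpR1 was 2.14 and 2.48 times, and that of LpR2 2.83 and 2.87 times, the level of wild type replicates 1 and 2. The muscle markers and nSyb given above were also higher in both mutant libraries, while Syt1, the other measured neuronal marker, was lower in both. The part of muscle and neurons in the receptor levels was not tested.

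**Figure D1:**
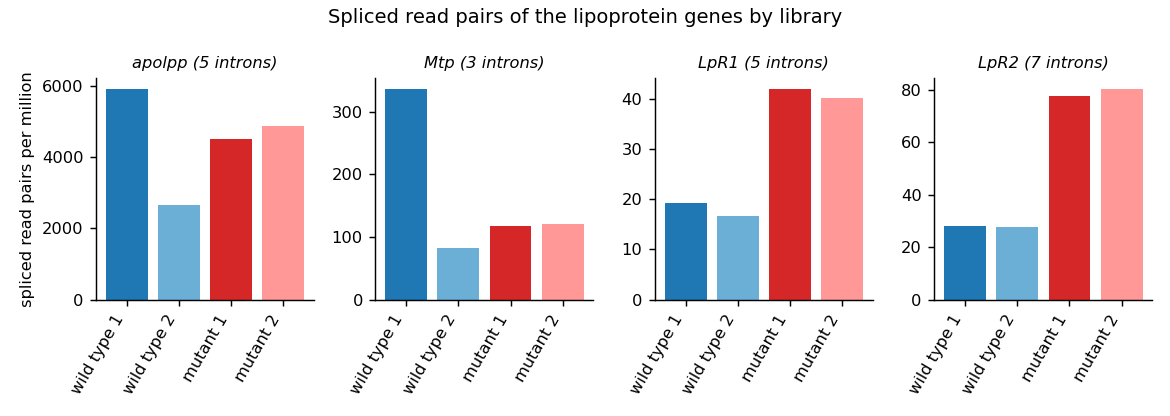
Level in SPM (vertical axis, a separate scale for each gene) in each of the 4 libraries; each bar is 1 library, blue for wild type and red for mutant. For apolpp and Mtp the mutant bars sit between those of wild type replicates 1 and 2, and for LpR1 and LpR2 both mutant bars are above both wild type bars.

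The genes closest to each member over the 4 libraries, by Euclidean distance between mean-centred log2 levels among 1201 genes with at least 3 tested introns, were Sec23 (distance 0.09), betaCOP (0.11) and VhaSFD (0.14) for apolpp. Sec23 and betaCOP encode coat proteins of vesicles that move between endoplasmic reticulum and Golgi. Sec23 had 575 and 238 SPM in wild type against 413 and 447 in mutants, the order seen in apolpp. For Mtp the closest were Aldh-III (0.22), Gp93, an endoplasmic reticulum chaperone (0.33), and CG5002 (0.42). For LpR1 they were DIP1 (0.02), cora (0.15) and CG34417 (0.18), and for LpR2 CG8399 (0.19), cora (0.22) and Usp2 (0.25). These distances describe 4 libraries.

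The 5 introns of apolpp differed in spliced pairs. Intron 7 (1096363-1096417) had 3163 and 1334 spliced pairs in wild type against 3721 and 3850 in mutants, a log2 difference of 0.66 ± 0.43 (SE) after scaling, with both mutant libraries above wild type. Intron 6 (1096184-1096241), its neighbour, had 2248 and 871 in wild type against 1276 and 1369 in mutants, a log2 difference of -0.30 ± 0.46. Introns 1, 4 and 5 had log2 differences of -0.02 ± 0.67, -0.16 ± 0.60 and 0.52 ± 0.58. The median over all 9957 introns tested was 0.24, with quartiles of -0.35 and 0.84. In Mtp the log2 differences were -0.82 ± 0.71 for intron 3, -0.01 ± 0.72 for intron 4 and -0.54 ± 0.65 for intron 5. Over all introns, 0.201% were called. Without wild type replicate 1 the sign turned at apolpp introns 1, 4 and 6 and at all 3 introns of Mtp, and without wild type replicate 2 at apolpp intron 5 (to -0.24).

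The retained share of isoform-specific read pairs was higher in both mutant libraries than in both wild type libraries at all 5 apolpp introns. The deposited fraction, rounded to 0.01, had that order at introns 1, 4, 5 and 7. At intron 6 it was 0.01 and 0.00 in wild type against 0.01 and 0.01 in mutants. Summed over them, 107 of 10279 isoform-specific read pairs were retained in wild type replicate 1 (1.04%, 95% Wilson interval 0.862 to 1.26) and 24 of 3412 in replicate 2 (0.703%, 0.473 to 1.04). In mutants, 363 of 8471 were retained in replicate 1 (4.29%, 3.87 to 4.74) and 360 of 9004 in replicate 2 (4.0%, 3.61 to 4.42). These intervals cover counting error only, as read pairs are not independent molecules. The wild type intervals overlapped each other, and both lay below both mutant intervals.

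Intron 5 (1094008-1094064) had the most retained pairs, 46 and 10 in wild type against 192 and 204 in mutants. Its spliced pairs were 2397 and 623 in wild type against 1997 and 2079 in mutants. Its retained share was 1.88% and 1.58% in wild type against 8.77% and 8.94% in mutants. The replicates of each group stood close together, and their Wilson intervals, 1.41 to 2.50% and 0.860 to 2.88% in wild type and 7.66 to 10% and 7.83 to 10.2% in mutants, did not overlap between groups. The log2 ratio of retained to spliced pairs differed by 2.37 ± 0.23 (SE) between the groups.

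Intron 1 (1085649-1085709), which follows the first exon of transcripts RA and RB, had 3 and 1 retained pairs in wild type against 15 and 26 in mutants, or 0.552% and 0.901% against 5.62% and 7.76%, a log2 difference of 3.23 ± 0.81. Its wild type shares rest on few pairs, and the interval of wild type replicate 2 (0.159 to 4.93%) overlapped that of mutant replicate 1 (3.43 to 9.06%). Intron 4 (1093732-1093786) had 18 and 3 retained pairs in wild type against 46 and 41 in mutants, a log2 difference of 2.27 ± 0.42. Its share was 0.977% and 0.662% in wild type against 5.07% and 3.80% in mutants, without overlap of the groups.

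In the mutant libraries introns 6 and 7 were retained less than introns 1, 4 and 5. Intron 6 had 26 and 5 retained pairs in wild type against 44 and 32 in mutants, or 1.14% and 0.571% against 3.33% and 2.28%, a log2 difference of 1.48 ± 0.42. Its intervals in wild type replicate 1 (0.781 to 1.67%) and mutant replicate 2 (1.62 to 3.21%) overlapped. Intron 7 had 14 and 5 in wild type against 66 and 57 in mutants, or 0.441% and 0.373% against 1.74% and 1.46%, a log2 difference of 1.88 ± 0.40, without overlap of the groups. It had the lowest retained share of the 5 introns in every library, and the most spliced pairs.

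**Figure D2:**
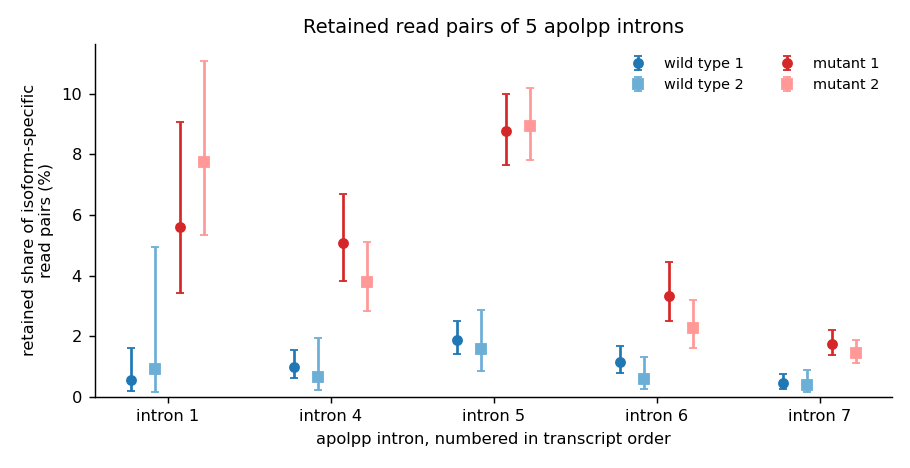
Retained share of isoform-specific read pairs in percent (vertical axis) for 5 apolpp introns numbered in transcript order (horizontal axis), 1 point per library with its 95% Wilson interval. Both mutant points are above both wild type points at each intron, with the highest mutant shares at introns 1 and 5 and the lowest of all libraries at intron 7.

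Because both mutant ratios lay above both wild type ratios at each of the 5 introns, leaving out 1 library could not turn the direction. Intron 1 had too few pairs to be fitted without mutant replicate 2. Of all 3302 retained introns tested, limma with counting weights called 12.1% in either direction and 11% as higher in mutants, and 50.2% had both mutant ratios above both wild type ratios. The median log2 difference of all tested introns was 0.55, with quartiles of -0.10 and 1.25. Outside the 4 genes, 200 tested introns of up to 70 bases had a median of 1.17 (quartiles 0.32 and 2.19), and 12 such introns on chromosome 4 a median of 0.66 (0.28 and 0.89). The 5 apolpp values, 1.48 to 3.23, were all above the upper quartile of all tested introns and of those on chromosome 4, and 3 of them above that of the short introns. Among those 3 is intron 1, at 3.23, with 3 and 1 retained pairs in wild type against 15 and 26 in mutants. Intron 1 met the minimum mean of retained pairs set for the ratio fit only through its mutant libraries. It was thus admitted because it was high in mutants, and its place against these quartiles is not a test. Mtp has introns of like length. Over its 3 introns 2 of 579 and 0 of 105 pairs were retained in wild type, the latter allowing a share of up to 3.53% by the Wilson interval, and 4 of 214 and 2 of 214 in mutants. These shares, 0.345% and 0.00% in wild type against 1.87% and 0.935% in mutants, had overlapping intervals in all 4 libraries, and too few retained pairs for the ratio fit. The interval of Mtp in mutant replicate 1 (0.729 to 4.71%) also overlapped that of apolpp in the same library (3.87 to 4.74%). In mutant replicate 2 the interval of Mtp (0.257 to 3.34%) lay below that of apolpp (3.61 to 4.42%). A difference in retention between these genes was not tested.

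At the donor pair of apolpp intron 1, the fraction using the downstream donor was 0.98 and 0.97 in wild type against 0.94 and 0.93 in mutants, in the deposited MISO estimates. The pairs behind it were 598 and 115 for the downstream donor in wild type against 264 and 323 in mutants, and 11 and 3 for the upstream donor in wild type against 15 and 20 in mutants. Both mutant libraries used the upstream donor more than both wild type libraries, with a log2 ratio lower by 1.52 ± 0.49 (SE). In 17.6% of all alternative 5′ site events both mutant fractions were below both wild type fractions, and 6.47% of the 433 tested were called. The 67 bases from the upstream donor to exon 2 are listed as an intron of their own, with a retained fraction of 0.12 and 0.07 in wild type against 0.30 and 0.33 in mutants. Its retained pairs, 61 and 6 in wild type and then 27 and 40 in mutants, did not follow that order when set against the upstream donor's pairs. The 5′ end of apolpp overlaps Zyx, a zyxin gene on the opposite strand (dm6, 4:1057365-1065001), which reaches into exon 1 but not into intron 1. Whether strand was used in counting is not given in the sources used here, so pairs of these genes in exon 1 cannot be told apart. Zyx had 67.6 and 131 SPM in wild type against 92.8 and 87.8 in mutants.

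The large coding exon 6 of apolpp (1094065-1096183), which all 4 annotated transcripts hold, was included at a fraction of 1.00 in every library. Pairs that skip it were 0 and 0 in wild type against 3 and 5 in mutants, beside 71502 and 21673 inclusion pairs in wild type against 54996 and 55583 in mutants. The exon of 2119 bases does not hold a whole number of codons. Pairs that skip it were thus listed in the mutant libraries alone and were rare.

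Exon bin usage of apolpp, in the authors' deposited table of mutant against wild type, had a log2 fold of -0.13 to 0.08 over its 8 bins. For developmental stage, 7 of the 8 bins were called in each of the authors' deposited tables, beside 1.03% of all tested bins for puff stage 1-2 against the second instar and 0.638% against the third instar at 12 h. Those tables share the puff stage libraries, so they are not independent of each other. Bins 1, 2 and 3 were lower at puff stage 1-2 in the authors' deposited tables, with log2 folds of -0.78, -0.71 and -0.76 against the second instar and -0.91, -0.85 and -0.83 against the third instar at 12 h. Bin 4 was also lower in the authors' deposited tables (-0.21 and -0.16), and bins 6, 7 and 8 were higher (0.12, 0.24 and 0.23, and then 0.13, 0.22 and 0.23). Bin 5 (-0.16 and 0.08) was not called in either. The sign thus turned once along the bin numbers, from the first bins to the last, in both stage tables.

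Adjusted p-values of the called bins in the authors' deposited table of puff stage 1-2 against the second instar ran from 0, as listed for bin 4, to 0.000233 for bin 1. Those in the authors' deposited table against the third instar at 12 h ran from 0 for bin 2 to 3.79e-07 for bin 8. Bins 1, 2 and 3 were the least covered, with mean normalized counts of 33.7, 63.6 and 61.6 in the former, against 3503 for bin 4 and 6895 for bin 6. Among bins with a mean of at least 20, 1.46% were called in the former and 1.03% in the latter. In the authors' deposited tables apolpp was 1 of 7 genes with at least 7 called bins in the former and 1 of 3 in the latter, out of 9087 and 8717 genes tested. The cutoff of 7 is apolpp's own number of called bins, and the genes were chosen with results of these files known. These counts and the stage calls are thus a description of apolpp. The bins carry no coordinates and were not matched to exons. No bin carries the reference identifier of Mtp.

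**Figure D3:**
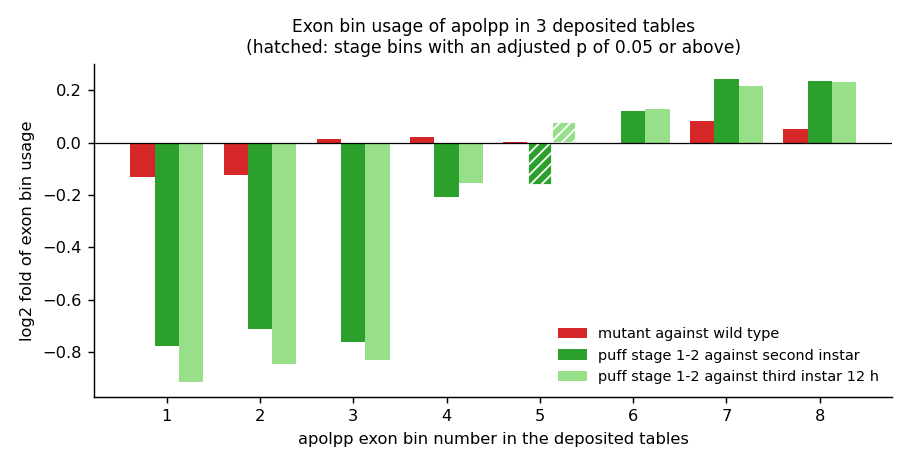
Log2 fold of exon bin usage (vertical axis) for the 8 apolpp bins (horizontal axis) in the authors' deposited tables; red is mutant against wild type and the greens are puff stage 1-2 against the second instar and against the third instar at 12 h, whose bars are hatched where the adjusted p was 0.05 or above. The stage bars run from about -0.9 at bin 1 to about 0.2 at bin 8, while the mutant bars stay between -0.13 and 0.08.

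Mtp had 1 further event, at the donor of intron 1. Its extended donor had no specific pair in any library, while 130 and 30 pairs in wild type against 46 and 62 in mutants used the annotated donor, a fraction of 0.00 to 0.01 for the extended form. Of the 4 genes Mtp had the widest gap between the wild type libraries and the fewest events.

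Of the receptor genes, LpR2 had 17 events, 15 of them listed in all 4 libraries, and LpR1 had 13, with 10 in all 4. Only 1 skipped exon and 2 retained introns of LpR2, and none of LpR1, had enough pairs of both forms for the ratio fit.

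At the 5′ end of LpR2, an alternative 5′ site event has 1 form that reads across a stretch of 4018 bases (21544120-21548137). That stretch holds the first exon of 4 of the 9 annotated transcripts, those of the proximal start, while the other form joins the distal exon across it. In transcripts of the distal start the stretch is intron, so their unspliced RNA also gives pairs inside it. These pairs cannot be told apart from those of the proximal start, and a change of start was not tested. Pairs on the proximal side were 10 and 7 in wild type against 69 and 116 in mutants. Those joining the distal exon were 12 and 5 in wild type against 7 and 8 in mutants. Per 1000000 spliced pairs of all introns, a wider denominator than that of SPM, the proximal side had 4.32 and 4.04 in wild type against 29.3 and 50.3 in mutants, a ratio of means of 9.52. The distal junction had 5.18 and 2.88 in wild type against 2.97 and 3.47 in mutants, a ratio of 0.798. The groups did not overlap on the proximal side and overlapped at the distal junction. The deposited fraction of the proximal side, which allows for the length of the stretch, was 0.01 and 0.03 in wild type against 0.14 and 0.19 in mutants; in 21.7% of all alternative 5′ site events both mutant fractions were above both wild type fractions. With under 20 specific pairs in wild type replicate 2, the event did not enter the ratio fit. The like event of LpR1, whose stretch holds the first exon of 3 of its 10 annotated transcripts, was listed in 3 libraries. Its fraction of the proximal side was 0.02 in wild type replicate 1 against 0.02 and 0.01 in mutants, from 2 pairs against 4 and 11, beside 5 against 3 and 23 at the distal junction.

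The mutually exclusive exons of LpR2 had a fraction of the upstream exon of 0.08 and 0.16 in wild type against 0.43 and 0.36 in mutants. The deposited event gives 1 base of each exon, the last base of the annotated exon whose sequence is given above. A retained intron event lists a shorter exon with the same last base as the upstream exon (21539259-21539305). The length of the upstream exon behind the fraction is thus not known. The difference of group means was 0.28 (0.12 ± 0.06 against 0.40 ± 0.05, SD, n = 2 each). Pairs specific to the upstream exon were 1 and 2 in wild type against 25 and 20 in mutants, and those of the downstream exon 20 and 14 in wild type against 34 and 37 in mutants. The downstream exon was the more frequent in every library. The deposited interval of wild type replicate 2, 0.04 to 0.32, overlapped those of the mutants, 0.31 to 0.55 and 0.25 to 0.48. The junctions that leave each exon gave the same order. The upstream exon's junction to the next exon (intron 21535240-21539258) had 0 and 1 spliced pairs in wild type against 13 and 11 in mutants, and the downstream exon's (21535240-21535746) had 11 and 7 in wild type against 29 and 30 in mutants. Of the 68 mutually exclusive events in all libraries, 22.1% had both mutant fractions above both wild type fractions. Each exon is annotated in 2 transcripts of the proximal and 2 of the distal start, so neither exon marks a start.

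A coding skipped exon of 105 bases in LpR2 (21531653-21531757, 35 codons, in 4 of 9 transcripts) was included at a fraction of 0.53 and 0.64 in wild type against 0.46 and 0.49 in mutants. Inclusion pairs were 20 and 20 in wild type against 51 and 63 in mutants, and skipping pairs 6 and 3 in wild type against 25 and 33 in mutants. The log2 ratio was lower by 1.03 ± 0.66 (SE) in mutants; of the 210 skipped exons tested 33.8% had both mutant ratios below both wild type ratios. A skipped exon of 179 bases near the 3′ end (21525570-21525748), annotated in 1 transcript, had fractions of 0.64 and 0.46 in wild type against 0.49 and 0.60 in mutants, so the groups overlapped. The stretch of 240 bases beside it (21525330-21525569), an intron in that transcript, was read through at a fraction of 0.85 and 0.89 in wild type against 0.98 and 0.97 in mutants. Its read-through pairs were 61 and 45 in wild type against 288 and 333 in mutants, which is 26.4 and 25.95 per 1000000 spliced pairs of all introns in wild type against 122 and 144 in mutants, a ratio of means of 5.10. The junctions of the gene with enough pairs for the test per intron had ratios on that scale of 2.18 (21525749-21527030), 2.88 (21535240-21535746), 3.11 (21527384-21531652) and 3.74 (21527384-21532008). Pairs that skip the 105-base exon had 5.77, from 6 and 3 pairs in wild type. Junctions with fewer pairs, listed in all 4 libraries, ranged from 0.641 (21525749-21526718) to 17.8 (21535240-21539258, from 0 and 1 pairs in wild type). The ratio of the stretch was thus above those of the tested junctions and below that of the skipping pairs. It lay within the range of the junctions with fewer pairs. Its relation to the level of the gene was not tested.

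Exon bins of LpR2, in the authors' deposited table of mutant against wild type, had log2 folds from -0.79 to 1.496 over 15 bins. The widest were those of bins 12, 9 and 11, at 1.496, 1.13 and 0.89 in the authors' deposited table, and of bin 13, at -0.79. Their mean normalized counts were low, at 9.86, 9.40, 18.5 and 12.9 in the authors' deposited table. For stage, none of the 13 and 12 tested bins of the authors' deposited tables was called or had an unadjusted p under 0.05, with log2 folds from -0.50 to 0.40.

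LpR1 had 3 coding skipped exons. That of 177 bases (21570088-21570264, 59 codons, 5 of 10 transcripts) was included at a fraction of 0.75 and 0.54 in wild type against 0.76 and 0.76 in mutants, with 29 and 15 inclusion pairs in wild type against 61 and 73 in mutants, and 2 and 5 skipping pairs in wild type against 3 and 7 in mutants. Wild type replicate 2 was lower than the other libraries, on 20 specific pairs. That of 117 bases (21574749-21574865, 39 codons) was included at 0.78 and 0.77 in wild type against 0.92 and 0.90 in mutants, where skipping pairs were 2, 1, 0 and 0. That of 123 bases (21573825-21573947, 41 codons) had 2 to 4 inclusion pairs in each library and fractions from 0.25 to 0.55, which overlapped between groups. All 3 exons hold whole numbers of codons, and each is in 5 of the 10 transcripts.

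At the 5′ end of LpR1, an event listed as mutually exclusive exons had a fraction of the upstream exon of 0.32 and 0.30 in wild type against 0.19 and 0.17 in mutants. The event gives 1 base of each exon. That of the upstream exon is the last base of the first exon of both transcript RQ and transcript RR. The pairs were 4 and 3 for the upstream exon in wild type against 4 and 6 in mutants, and 31 and 21 for the downstream exon in wild type against 64 and 109 in mutants. The upstream exon's pairs were alike in number in all libraries, while the downstream exon had more in both mutant libraries. Both mutant fractions were below both wild type fractions in 26.5% of mutually exclusive events. Of the retained intron events of LpR1 in all 4 libraries, fractions ran from 0.02 to 0.40, the highest in wild type replicate 2 at an intron (21572956-21574748) with 3 retained pairs and 1 spliced pair. For stage, none of the exon bins of LpR1 was called in the authors' deposited tables or had an unadjusted p under 0.05. Over the tested bins of LpR1, log2 folds in mutants in the authors' deposited table ran from -0.34 to 0.25. Bins 11 and 12, with mean normalized counts of 1.78 and 0.825 there, were listed at 0.69 and 11.67 but not tested.

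**Figure D4:**
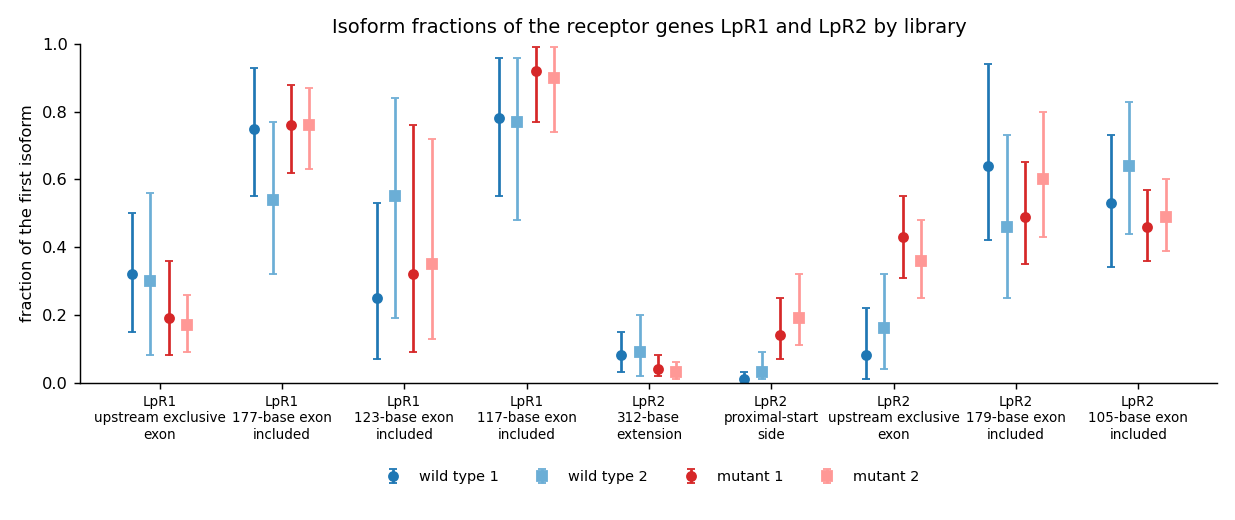
Fraction of the first isoform (vertical axis, 0 to 1) in the 9 alternative exon and donor events of LpR1 and LpR2 listed in all 4 libraries, 1 point per library with the deposited MISO interval. Mutant points are above wild type at the proximal-start side and the upstream exclusive exon of LpR2, and most other intervals overlap.

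Across all 43 events of the 4 genes, 38 were listed in all 4 libraries and 20 had at least 20 isoform-specific pairs in each. In 12 of the 38 both mutant fractions were above both wild type fractions and in 8 both were below. By gene, the higher ones were 5 in apolpp, 4 in LpR2 and 3 in LpR1, and the lower ones 6 in LpR2 and 1 each in apolpp and LpR1. These counts use the deposited fractions. The 5 of apolpp are introns 1, 4, 5 and 7 and the intron of 67 bases from the upstream donor. Intron 6, at 0.01 and 0.00 in wild type against 0.01 and 0.01 in mutants, is not among them. Mtp had none. Over all retained introns listed in every library the shares were 26.9% above and 12.2% below, and over all skipped exons 21% and 22.5%.

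Other genes of the pathway were measured from 4 lists. Of 42 listed genes 29 had enough spliced pairs, and limma called 0 of them at an adjusted p under 0.05 in either direction, with 3 at an unadjusted p under 0.05. Their median log2 difference was 0.13, beside 0.15 over all genes. Both mutant libraries were above wild type for 8, below for 7 and overlapped wild type for 14, where 35.5% and 22% of all genes were above and below. Without wild type replicate 1 the median of the listed genes was 0.61, beside 0.16 over all genes. Without wild type replicate 2 it was -0.12, beside 0.17. Without mutant replicate 1 it was 0.27, beside 0.17, and without mutant replicate 2 it was -0.01, beside 0.08. The sign of the median thus turned with the library left out.

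Of the genes for lipoprotein assembly and secretion, 5 of 7 were measured, with a median log2 difference of 0.22. Sec31, a coat protein of vesicles leaving the endoplasmic reticulum, was the highest at 0.51 ± 0.48 (SE, limma adjusted p = 0.56) and Sar1, the small GTPase that starts that coat, the lowest at -0.66 ± 0.33 (limma adjusted p = 0.30). Sar1 had 1461 and 1246 SPM in wild type against 831 and 874 in mutants, so its groups did not overlap, unlike those of apolpp. Of the low density lipoprotein receptor family and its chaperone, 3 of 6 were measured. They ranged from -0.16 ± 0.52 for arr, a Wingless co-receptor, to 0.44 ± 0.34 for LRP1, with a median of 0.20. LRP1 had 16.9 and 11.8 SPM in wild type against 19.01 and 19.8 in mutants, a smaller difference than those of LpR1 and LpR2 on the same scale, which was not tested against them.

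Lipid storage and synthesis genes, 14 measured of 17, held the widest values, with a median log2 difference of 0.27. ACC, the acetyl-CoA carboxylase that commits carbon to fatty acid synthesis, was the highest at 3.05 ± 1.32 (SE, limma adjusted p = 0.26). It had 103 and 5.51 SPM in wild type against 161 and 263 in mutants, so the size of its difference rests on wild type replicate 2. The fatty acid synthase gene FASN1 had 913 and 23.6 in wild type against 962 and 1361 in mutants. Dgat2, a diacylglycerol acyltransferase, was the lowest at -2.14 ± 0.34 (limma adjusted p = 0.12), with 30.3 and 25.2 in wild type against 6.15 and 5.66 in mutants, in which the replicates of each group stood close. Of the sterol and fatty acid carriers and regulators, 7 of 12 were measured, with a median of -0.01. SREBP, the transcription factor of fatty acid synthesis genes in flies, was the highest at 1.01 ± 0.45 (limma adjusted p = 0.27). The fatty acid binding protein gene fabp was the lowest at -1.37 ± 0.38 (limma adjusted p = 0.16), with 6794 and 4571 SPM in wild type against 2163 and 2154 in mutants.

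**Figure D5:**
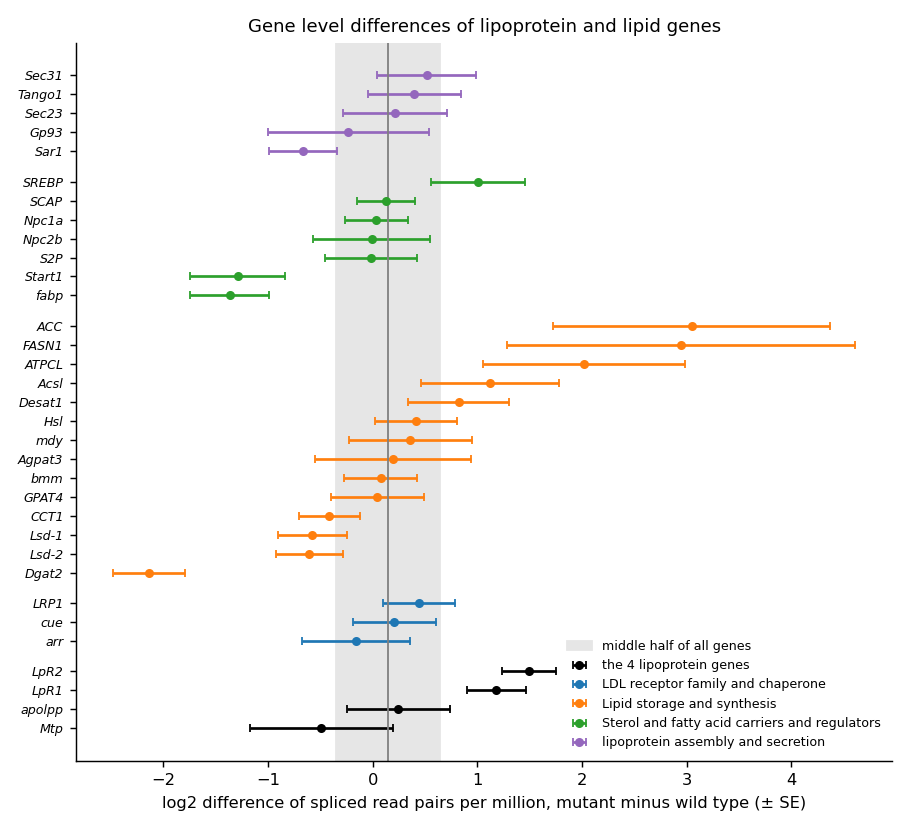
Log2 difference of the level in SPM, mutant minus wild type, with its SE (horizontal axis), for the 4 lipoprotein genes and 29 listed genes (vertical axis, coloured by list); the grey band spans the quartiles of all 4114 genes, -0.35 to 0.64, and the line is their median, 0.15. LpR1 and LpR2 lie to the right of the band at 1.18 and 1.49, apolpp and Mtp have SEs that reach into it, and the widest values are those of ACC, FASN1 and Dgat2.

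In the authors' deposited table of mutant against wild type, 5 of 49 tested bins of the assembly and secretion list were called, 4 in Sar1 and 1 in Gp93. The receptor family list had, in the authors' deposited table, 1 of 45 (mgl), lipid storage and synthesis had 11 of 109 (in Lsd-1, Lsd-2, bmm, Desat1, ACC and GPAT4) and the carriers had 2 of 55 (Npc2h and SREBP). The shares were 10.2%, 2.22%, 10.1% and 3.64%, against 2.99% of all tested bins and 4.32% of those with a mean normalized count of at least 20. Against the second instar, stage differences were called in the authors' deposited table for 3 of 100 tested bins of lipid storage and synthesis, 2 in Desat1 and 1 in Lsd-1. The other lists had 0 of 47, 0 of 47 and 0 of 55, beside 1.03% of all tested bins. With so few calls, a difference from that share was not tested. No list bin was called against the third instar at 12 h, beside 0.638% of all tested bins.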

How the data were processed

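RNA sequencing libraries of whole larvae were aligned by the authors with TopHat2 2.0.8 and Bowtie2 2.1.0 to dm3, per the submitters' processing notes. Splicing events of the modENCODE annotation were quantified with MISO 0.4.8, library against library, as the deposited readme states. The deposited MISO files give, per the file headers, the fraction of the first isoform (rounded to 0.01) with its interval, a Bayes factor, which is a ratio, and read pairs per isoform class; the fraction of events with more than 2 isoforms sits in text cells. Events have at least 20 pairs. The authors' DEXSeq tables (version 1.0.2 or later, per the deposited readme) hold a log2 fold, p-value, adjusted p-value and mean normalized count, a signal over all their libraries; the deposited dispersion is a score that was not used. Each library's values were the same in every file.

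The reference was dm6 and no coordinates were converted: events were assigned to genes by exon and intron lengths and the displacement shared with neighbours, and 35 of the 43 events of these genes were length-matched, the others by position between them. Sequences are dm6 annotation features. Protein sequences were not used here.

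Levels were log2(SPM + 0.5), for features with at least 20 pairs in at least 2 libraries, fitted with limma 3.58.1 (R 4.3.3, trend). Ratios were log2((first + 0.5)/(second + 0.5)), for events with at least 20 specific pairs in every library and a mean of at least 10 of each form, weighted by counting variance. Benjamini-Hochberg adjustment ran over all features of a fit (0.05 threshold). Steps were tested on simulated data. With 2 libraries a group, the smallest two-sided exact permutation p is 0.33. Members, lists and tests were chosen with earlier results of these data known. Named genes are the 4 genes with their events, and of each list the highest and lowest, 3 closest genes per member, and genes with called bins; FASN1, Zyx and ade2 were added after their values were seen. Of the listed genes, Lipin and magro had no single match in the reference.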

Additional observations from a re-analysis of the deposited data

How the results depend on the processing

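The 4 wild type and mutant libraries allow few degrees of freedom, and the wild type libraries differ, so counts of called features move with the setting; the cause was not tested. At gene level 3 genes were called, against 1 with median ratio scaling, 5 with a pseudocount of 5, 1 with no minimum and 0 to 2153 when 1 library was left out. Per intron 20 were called, against 59 with a pseudocount of 5, 0 with no minimum and 5 to 5071 when 1 library was left out. Median ratio scaling moved the median over introns from 0.24 to 0.07, and the LpR1 and LpR2 gene differences to 1.08 and 1.39. Retained intron calls were 400, against 45 with no minimum mean and 192 to 610 when 1 library was left out. Other ratio calls were 28, against 0 with no minimum mean, 46 with a minimum mean of 20, 0 without weights and 0 to 18 when 1 library was left out. A stricter adjusted p of 0.01 gave 985 mutant exon bins in place of 1571, and a minimum mean count of 20 gave 320 bins against the second instar in place of 505; the apolpp bins called did not change in number. Leaving out wild type replicate 1 turned 6 introns, apolpp introns 1 (log2 difference 0.91, in place of -0.02), 4 (0.64, in place of -0.16) and 6 (0.17, in place of -0.30) and Mtp introns 3 (0.22, in place of -0.82), 4 (1.06, in place of -0.01) and 5 (0.37, in place of -0.54). Over the libraries left out, apolpp introns 1 and 4 and Mtp intron 4 ranged from -0.96 to 0.91, from -0.96 to 0.64 and from -1.07 to 1.06. The replicate numbers do not pair the libraries: deviations of same-numbered libraries correlated at -0.06. A replicate block gave 30 genes, 284 introns, 283 retained introns and 7 other ratios. Intron 1 of apolpp, with 1 to 3 retained pairs in each wild type library, is limited by depth.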
